A study of Rattus norvegicus with 3 samples.

Results

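The classical cadherins and the catenins that bind them were followed in rat induced pluripotent stem (iPS) cells. The 10 genes were the cadherins Cdh1, Cdh2, Cdh3, Cdh5, Cdh11 and Cdh13, and the catenins Ctnna1, Ctnnb1, Ctnnd1 and Jup. Their probes were found by name: every gene probe whose name in the array files, without the suffixes for predicted or mapped genes, was one of these or its older alias. This gave 18 of 41012 gene probes and 10 of 35561 gene names. Ctnna1 was listed under its older name Catna1, and Cdh5 and Ctnnd1 under names marked as predicted.

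Cells of the rat iPS line F65, untreated and grown on a feeder layer of irradiated mouse embryonic fibroblasts, gave 3 samples of total RNA. The RNA they were set against, named mix1, came from adult rats and combined primary fibroblasts of the ear with cultured cells of the bone marrow, in proportions the labels do not give. Each iPS F65 sample (Cy3) was hybridised with mix1 (Cy5) to its own 2-colour Agilent array. All 3 arrays lay on 1 slide with the same dye orientation, so an effect of the dyes and the difference between the cells cannot be told apart. The labels do not say that the iPS F65 samples came from separate cultures, and mix1 is 1 control sample. The p-values thus rest on how far 3 possibly technical repeats varied, with no variation among adult cell samples in them. Mix1 is a mixture of cell types, and fewer cells of a type and less RNA per cell cannot be told apart.

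Classical cadherins are single-pass membrane proteins that bind their like on the neighbouring cell in a calcium-dependent way. Their cytoplasmic tail holds p120 catenin (Ctnnd1) near the membrane and, further along, either beta-catenin (Ctnnb1) or plakoglobin (Jup). These in turn bind alpha-catenin (Ctnna1), which couples the junction to actin filaments. Beta-catenin also carries the canonical Wnt signal to the nucleus when it is not degraded. E-cadherin (Cdh1) holds epithelial cells and colonies of pluripotent stem cells together, while N-cadherin (Cdh2) and cadherin-11 (Cdh11) are typical of mesenchymal cells.

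Of the 10 genes, 9 could be tested, with 16 of the 18 probes. Cdh1 and Cdh2 were higher in iPS F65 than in mix1. Cdh3, Cdh11, Cdh13, Ctnna1 and Jup were lower, and Ctnnb1 and Ctnnd1 were neither. A gene was called higher or lower at an adjusted p under 0.05 in limma's test of the mean log2 ratio against 0 and a change of at least 2-fold. The same rule called 30.9% of 21805 genes higher and 24.5% lower. With 2 genes higher and 5 lower out of 9, the count alone does not set these genes apart from that background. The p threshold alone was passed by 20834 of the 21805 genes, so an adjusted p under 0.05 does not set a gene apart. What varied was the size of the change, which ran between log2 ratios of 3.26 for Cdh1 and -8.04 for Cdh13. The median over the 9 genes was -1.16, beside 0.25 over all genes tested. Ratios are log2 of the iPS F65 signal over the mix1 signal, both processed by the scanner software. They are given as mean ± SD over the 3 arrays (n = 3).

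**Figure D1:**
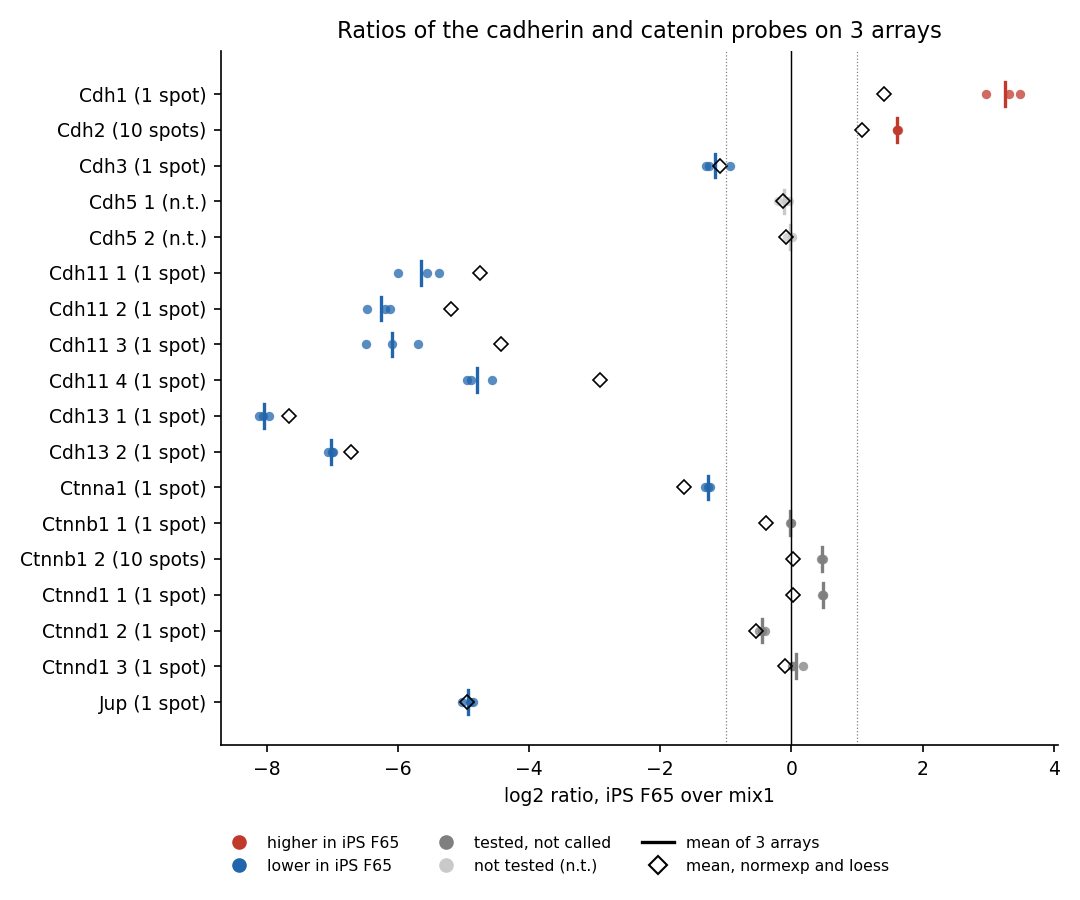
Log2 ratio of iPS F65 over mix1 (horizontal axis) for each of the 18 probes, with 1 point per array, a bar at the mean of 3 arrays and an open diamond at the mean after another background correction and dye scaling (normexp and loess). Dotted lines mark a 2-fold change. Cdh1 and Cdh2 lie right of the upper line, the probes of Cdh11, Cdh13 and Jup lie between -4.80 and -8.04, and the probes of Ctnnb1 and Ctnnd1 lie within 0.48 of 0.

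Each probe is a 60-base oligo, and the sequence decides what a signal stands for. The 5 below, as the array files give them, 5′ to 3′, read the 3 cadherins that were lower in iPS F65 (Cdh13, Cdh11 and Cdh3) and the catenins whose probes differ from each other (Ctnnb1 and Ctnnd1), with 1 probe shown for each.
Cdh13 probe 2: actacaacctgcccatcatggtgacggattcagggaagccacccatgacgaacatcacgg
Cdh11 probe 1: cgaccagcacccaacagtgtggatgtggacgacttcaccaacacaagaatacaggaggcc
Cdh3: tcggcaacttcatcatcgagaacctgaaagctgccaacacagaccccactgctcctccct
Ctnnb1 probe 2: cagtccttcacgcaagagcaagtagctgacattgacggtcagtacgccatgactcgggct
Ctnnd1 probe 2: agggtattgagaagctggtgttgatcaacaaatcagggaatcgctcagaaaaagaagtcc
All are in lower case because the whole oligo is the probe. In the coordinates of the array files, whose header names the rat build rn3, they lie at chr19:49571166-49571225, chr19:2380233-2380292, chr19:36395784-36397864 and chr8:125998417-125998608 on the plus strand, and at chr3:67713952-67714468 on the minus strand. The intervals of the Cdh3, Ctnnb1 and Ctnnd1 oligos are longer than the 60 bases of the probe. Each of the 5 has at least 1 sense reading frame without a stop codon. Exons and UTRs of that build were not used here. G and C made up 43.3% of the bases in Ctnnd1 probe 2 and 55.0% in the other 4.

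E-cadherin was detected in iPS F65 on all 3 arrays and was not well above background in mix1 on any. The Cdh1 probe (chr19:36516734-36516793, plus strand) gave processed signals of 208, 231 and 252 in iPS F65 on the 3 arrays, against 18.5, 23.1 and 32.5 in mix1. The groups did not overlap. Since mix1 has only an upper bound, Cdh1 was at least 3.43-fold higher in iPS F65. The bound sets the mean iPS F65 level against the higher, on each array, of the mix1 signal and the lowest signal well above background. This bound and those of other genes below hold for processed signals only. The measured log2 ratio was 3.26 ± 0.27 (limma, adjusted p = 0.000126). With signals corrected by normexp and scaled by loess the ratio was 1.41 ± 0.05, and it was 1.43 with loess and no background subtraction. The direction was the same and the size smaller, below the bound from processed signals. These settings differ from the processed signals in both background and dye scaling, and the part of each in the smaller size was not tested. Median centring of the processed ratios alone gave 3.28. When the uneven backgrounds were not replaced before normexp, the ratio was 0.55 (limma, adjusted p = 0.246) and Cdh1 was not called.

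N-cadherin was higher in iPS F65 as well, and it is the cadherin measured with the most spots. Its probe (chr18:8049328-8049387, minus strand) was spotted 10 times on each array. Signals were 2532, 2944 and 2955.5 in iPS F65 and 829.9, 963.5 and 961.7 in mix1, well above background on every array in both channels. Every iPS F65 signal was above every mix1 signal, and the log2 ratio was 1.61 ± 0.01, a 3.06-fold difference (limma, adjusted p = 6.77e-06). Between the 10 spots of an array the SD of the log2 ratio was 0.043, 0.035 and 0.031. The SD between arrays is that of means over 10 spots, so it cannot be set against these. With normexp and loess the ratio was 1.08 ± 0.01. It was 0.95, without a call, when the uneven backgrounds were not replaced.

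P-cadherin (Cdh3), a cadherin of placenta and basal epithelium, was lower in iPS F65. Its signals were 121, 157 and 207 in iPS F65 and 298, 372 and 395 in mix1, without overlap and above background on every array. This gave a log2 ratio of -1.16 ± 0.20, or 2.23-fold lower (limma, adjusted p = 0.000933). On single arrays it was -1.30, -1.25 and -0.93, so on the array of replicate 3 the difference was under 2-fold. With normexp and loess the ratio was -1.08 ± 0.07, and -0.45, without a call, when the uneven backgrounds were not replaced. Cdh3 and Cdh1 lie next to each other on chromosome 19, with 118869 bases between their probes in the array coordinates and 0 protein-coding genes between them in the RefSeq gene table of assembly GRCr8. The neighbours were called in opposite directions.

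The mesenchymal cadherin-11 was far lower in iPS F65. All 4 of its probes, spread over chr19:2352706-2382515, were called lower, with log2 ratios between -4.80 ± 0.21 and -6.26 ± 0.18. Probe 1 above, with the highest mean log2 signal over both channels and all arrays, gave 40.739, 65.005 and 75.672 in iPS F65, well above background on 1 of the 3 arrays, against 2592, 3038 and 3153.5 in mix1. Its log2 ratio was -5.64 ± 0.32, a 49.9-fold difference (limma, adjusted p = 4.42e-05), and -4.74 ± 0.05 with normexp and loess. When the uneven backgrounds were not replaced, it was -2.70, without a call. The other 3 probes were not well above background in iPS F65 on any array, and they put Cdh11 at least 52.6-fold, 26.1-fold and 7.15-fold lower. The smallest of these bounds came from probe 4, with 421, 486 and 503 in mix1. With normexp and loess probes 2, 3 and 4 were at -5.19, -4.43 and -2.92. For probes 2 and 3 this is a smaller change than the bound. The 2 cadherins typical of mesenchymal cells, Cdh2 and Cdh11, were thus called in opposite directions.

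T-cadherin (Cdh13), which is anchored in the membrane by a lipid and has no cytoplasmic tail to bind catenins, had the widest ratio of the 10 genes. Probe 1 (chr19:49579798-49579857, plus strand) gave 87.8, 99.1 and 112 in iPS F65, against 23267, 27435 and 27892 in mix1. All 3 iPS F65 signals were well above background, and the groups were far apart. The log2 ratio was -8.04 ± 0.08, a 264-fold difference (limma, adjusted p = 5.33e-06). Probe 2, whose sequence is given above, gave 110, 131 and 132 in iPS F65 and 14737, 16684 and 16862 in mix1. Its log2 ratio of -7.02 ± 0.04 is a 130-fold difference (limma, adjusted p = 5.31e-06). The 2 probes differed by 1.02 ± 0.09 on the log2 scale, more than the spread between arrays, in the same direction. With normexp and loess the ratios were -7.66 ± 0.01 and -6.72 ± 0.07, and probe 1 was at -5.48 when the uneven backgrounds were not replaced.

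VE-cadherin (Cdh5), the cadherin of endothelial cells, could not be tested. Probe 1 (chr19:788852-790286, minus strand) gave 63.0, 81.0 and 69.2 in iPS F65 and 73.0, 85.8 and 71.1 in mix1, well above background on 2 of 3 arrays in each channel. Its log2 ratio was -0.11 ± 0.09, with overlapping signals. Probe 2 (chr19:779103-779162, minus strand) was at 12.8 to 15.5 in iPS F65 and 12.7 to 15.3 in mix1, never well above background. A difference in Cdh5 was not detectable at these signals. Of 13 endothelial markers with a probe, 6 were not well above background in iPS F65 on any array, and 6 were not in mix1. Pecam1 and Flt1 were among them in both.

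**Figure D2:**
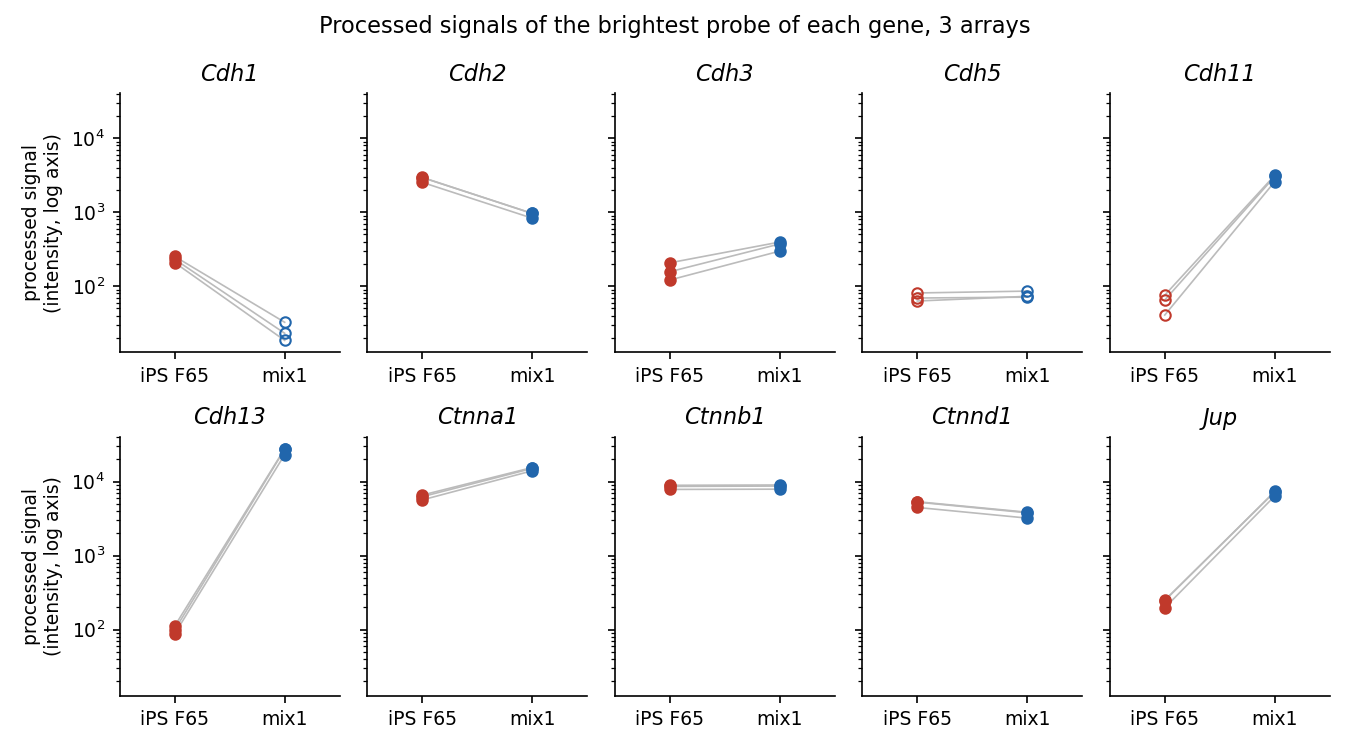
Processed signal (intensity, log axis) of the brightest probe of each gene in iPS F65 (left) and mix1 (right), with grey lines joining the channels of 1 array (n = 3). Hollow points mark a channel that was not well above background on all 3 arrays. Signals can be compared between the channels of a gene and not between genes, since each probe has its own brightness. Lines run steeply up to mix1 for Cdh11, Cdh13 and Jup, down for Cdh1 and Cdh2, and are level for Ctnnb1.

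Of the catenins, Ctnnb1 and Ctnnd1 were not called, Ctnna1 was lower and plakoglobin was far lower in iPS F65 than in mix1. Beta-catenin had near equal signals in both. Probe 1 gave 7866, 8945 and 8635 in iPS F65 and 7928, 9031 and 8740 in mix1. The log2 ratio was -0.01 ± 0.00 (limma, adjusted p = 0.372). Probe 2, with 10 spots per array, gave 917, 1066 and 1066 in iPS F65 and 671, 762 and 772 in mix1, and its groups did not overlap. Its log2 ratio of 0.47 ± 0.02 passed the p threshold (limma, adjusted p = 8.54e-05), as most genes did, at less than 2-fold. The probes thus differed by 0.48 ± 0.02 on the log2 scale, more than the spread between arrays. With normexp and loess both ratios moved down, to -0.39 ± 0.01 and 0.02 ± 0.02. Probe 2 did not pass the p threshold there (limma, adjusted p = 0.194). Probe 1 was at -0.08 when the uneven backgrounds were not replaced. Normexp and loess put the median of all genes at -0.08, beside 0.25 with processed signals, and relative to these medians probe 1 was lower in both.

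Plakoglobin, the closest relative of beta-catenin and a component of both adherens junctions and desmosomes, gave 198, 248 and 251 in iPS F65, against 6406, 7388 and 7292 in mix1 (chr10:89322669-89322728, minus strand). Both channels were well above background on all 3 arrays and the groups did not overlap. The log2 ratio was -4.93 ± 0.08, which is 30.4-fold lower (limma, adjusted p = 6.53e-06). With normexp and loess it was -4.95 ± 0.04, or -3.29 when the uneven backgrounds were not replaced. Within the arrays the ratio of Jup lay below that of Ctnnb1 by a log2 difference of -4.91 ± 0.08 with Ctnnb1 probe 1 and -5.39 ± 0.07 with probe 2 (n = 3). The proteins compete for the same stretch of the cadherin tail, and their RNAs differed unequally between iPS F65 and mix1.

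Alpha-catenin was lower by a small and even amount. Ctnna1 (chr18:27795027-27795086, plus strand) gave 5672, 6595 and 6273 in iPS F65, against 14054, 15549 and 15125 in mix1. No iPS F65 signal reached a mix1 signal, at a log2 ratio of -1.27 ± 0.04, a 2.42-fold difference (limma, adjusted p = 1.69e-05), and -1.63 ± 0.02 with normexp and loess.

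For p120 catenin, which stabilises cadherins at the membrane, 3 probes gave 3 answers, none of them past 2-fold. Probe 1 (chr3:67705556-67705615, minus strand) gave 4491, 5367 and 5298 in iPS F65 and 3223, 3869 and 3804 in mix1. Its log2 ratio was 0.48 ± 0.00 (limma, adjusted p = 5.77e-05). Probe 2 gave 198, 233 and 243 in iPS F65 and 279, 320 and 322 in mix1, with a log2 ratio of -0.45 ± 0.05 (limma, adjusted p = 0.000326). The signals of each of these probes did not overlap, in opposite directions. Probe 3 (chr3:67756391-67756450, minus strand) overlapped, with a log2 ratio of 0.07 ± 0.09 (limma, adjusted p = 0.193). Probes 1 and 2 differed by 0.93 ± 0.05 on the log2 scale. With normexp and loess probes 1 to 3 were at 0.03 ± 0.01, -0.545 ± 0.03 and -0.10 ± 0.06. Probe 1 did not pass the p threshold there (limma, adjusted p = 0.119). No direction can be given for Ctnnd1.

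**Figure D3:**
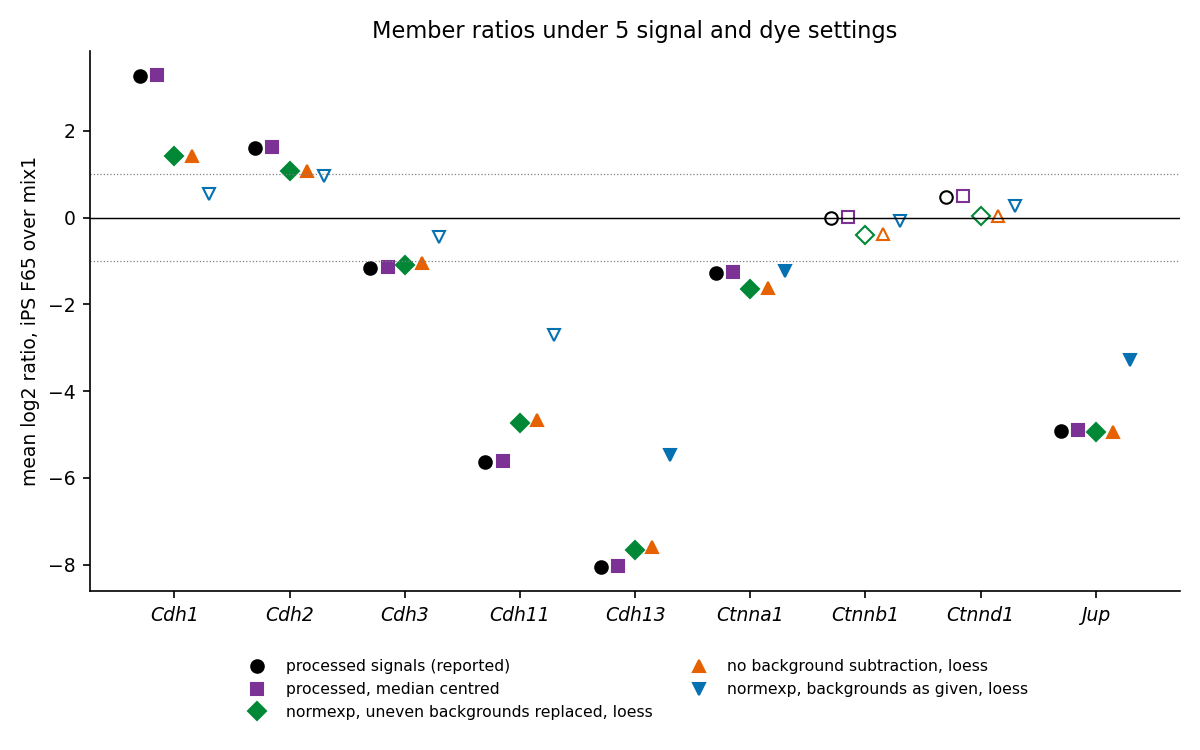
Mean log2 ratio of iPS F65 over mix1 (vertical axis) for the 9 tested genes under 5 settings of background and dye scaling, with filled symbols where the gene was called higher or lower and dotted lines at a 2-fold change. The 7 called genes keep their call in 4 of the 5 settings. With normexp on backgrounds as given, Cdh1, Cdh2, Cdh3 and Cdh11 lose it, at ratios of 0.55, 0.95, -0.45 and -2.70.

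Marker lists were set beside the members in the same comparison of iPS F65 with mix1. Counts in this and the following lists are descriptions without a test, to be set beside the 30.9% of all genes called higher and the 24.5% called lower. All 14 fibroblast and mesenchymal markers tested were lower in iPS F65, with summed processed signals of 21500 to 27200 in iPS F65 and 2290000 to 2860000 in mix1. Thy1, Fap and Postn were not well above background in iPS F65 on any array, while the other fibroblast markers were on all 3. The collagen Col3a1 had a log2 ratio of -10.09 ± 0.05, and Postn was at least 481-fold lower. Of 9 leukocyte markers tested, 8 were lower, among them Lyz2 (-7.30 ± 0.05) and Tyrobp (-7.01 ± 0.07), with sums of 4080 to 5150 in iPS F65 and 252000 to 294000 in mix1. Of 5 smooth muscle markers 4 were lower, with sums of 1430 to 1680 in iPS F65 and 108000 to 132000 in mix1. Tagln was at -7.32 ± 0.08 and Cnn1 at least 42.5-fold lower. Endothelial markers were lower for 5 of 7 tested, among them Eng (-4.49 ± 0.03) and Erg (at least 5.94-fold), and 1 was higher, with sums of 1530 to 2170 in iPS F65 and 8030 to 9420 in mix1. The endothelial median was -2.84 as measured and -1.13 with genes at their bounds. Tie1, another of the lower ones, has a bound of only 1.64-fold. How much of the lower Cdh11, Cdh13 and Jup in iPS F65 goes with these cells of mix1 was not tested. The fibroblast sum was lower in iPS F65, grown on mouse fibroblasts, than in mix1. The part of mouse feeder RNA in any signal was not tested.

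On the other side, 6 of 9 epithelial markers tested were higher in iPS F65, as was Cdh1, and 1 was lower. Of the higher ones, Krt19 and Crb3 have bounds under 2-fold, at least 1.30-fold and 1.72-fold. The median of the list was 2.94 as measured and 0.92 with genes at their bounds. The list's summed signals were 7360 to 8410 in iPS F65 and 2420 to 2640 in mix1. Epcam, a homophilic adhesion protein, was higher by at least 28.3-fold, and the tight junction gene Ocln had a ratio of 3.75 ± 0.46. Epcam, Krt19, Cldn6, Crb3, Grhl2 and Rab25 were not well above background in mix1, and Cldn6, Grhl2 and Rab25 were not in iPS F65 either. Of 7 pluripotency markers tested, 6 were higher, among them Nr0b1 (4.87 ± 0.05) and Dnmt3b (4.22 ± 0.12), and none was lower. Their sums were 26700 to 31000 in iPS F65 and 2440 to 2570 in mix1, with Esrrb and Fgf4 not well above background in either.

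Other adhesion receptors at the junction moved both ways. Of 10 further classical cadherins with a probe only 3 were bright enough to test, and 2 were higher. These were Cdh6 (at least 6.29-fold) and Cdh10 (3.59 ± 0.35), which was above background in mix1 on 1 array. The list's median was 2.81, or 2.65 with Cdh6 at its bound. Among 5 tested genes of desmosomes, the junctions that plakoglobin also serves, 3 were higher and 1 lower (median 2.77). The desmosomal cadherin Dsc2 was at 2.80 ± 0.34 and the membrane protein Perp at least 12.3-fold higher, while the plaque protein Pkp2 was lower at -2.58 ± 0.04, on the same side as Jup. Of 6 nectins and afadin partners, 2 were higher and 2 lower (median 0.63). Afadin (Afdn, 1.94 ± 0.02) and Nectin3 (2.82-fold) were higher, and Nectin2 (-3.27 ± 0.04) and Pvr (-1.24 ± 0.01) were lower. Of 5 catenin relatives 2 were higher and none lower (median 1.00). They were Ctnnal1, related to alpha-catenin (2.15 ± 0.05), and Pkp4, related to p120 catenin (1.68 ± 0.05).

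Among the genes that link the junction to actin, more were lower than higher. Of 18 tested, 9 were lower and 3 higher, with a median of -0.75. The actin-binding Lima1 (-5.42 ± 0.06) and alpha-actinin Actn1 (-3.33 ± 0.01) had the lowest ratios of the list. Shroom2 (2.11 ± 0.01) and Shroom3 (1.94 ± 0.16), which recruit actomyosin contraction to the apical junction, were higher.

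Genes that modify or remove cadherins are given next to the shares over all genes, 24.5% lower and 30.9% higher. Of 20 genes of cadherin shedding, processing and turnover, 10 were lower and 1 higher (median -0.98). The matrix metalloproteases led, with Mmp3 at least 274-fold lower and Mmp2 at -7.84 ± 0.07. The single higher gene was Psen2, a subunit of gamma-secretase, at 1.12 ± 0.01, and it was under 2-fold (0.74) with normexp and loess. Of 17 kinases and phosphatases, 6 were lower and 3 higher (median -0.59). The phosphatase Ptpn6, abundant in blood cells, was at -4.82 ± 0.04 and the kinase Fes at -4.10 ± 0.21 (above background in iPS F65 on 1 array). Csnk2a1, a catalytic subunit of casein kinase 2, was higher at 1.91 ± 0.04. The receptor phosphatase Ptprk was at least 1.64-fold higher, with a measured ratio of 1.58 ± 0.23 and 0.61 with normexp and loess, where it was not called.

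Around beta-catenin itself, most genes of its destruction complex were not called. Of 12 tested, 2 were higher and 1 lower (median 0.44). The ubiquitin ligase parts Cul1 (1.21 ± 0.02) and Btrc (1.04 ± 0.08) were just past 2-fold, and neither was called with normexp and loess (0.89 and 0.50). Axin2, a scaffold of the complex and a common target of Wnt signalling, was lower at -2.44 ± 0.18, above background in iPS F65 on 1 array. Of 10 nuclear partners, 3 were higher and 1 lower (median 0.61), with the share higher near the 30.9% over all genes. The DNA-binding partner Lef1 was at least 16.9-fold higher and the Paf1 complex member Cdc73 was at 2.17 ± 0.03, while the co-activator Bcl9l was at least 5.61-fold lower.

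Regulators of cadherin transcription were split by direction. Of 12 tested, 7 were lower and 3 higher (median -1.46). Snai1 (-7.22 ± 0.08) and Twist2 (-5.86 ± 0.28) had the lowest ratios of the list. Whether direction goes with role, repressing or activating, among these genes was not tested. The higher ones were Klf8, Grhl3 and Ovol2. Klf8 was at least 1.67-fold higher and not well above background in mix1 on any array. Grhl3 was at 2.36 ± 0.97 and Ovol2 at 2.02 ± 0.16. Ovol2, the only one of them that every array measured above background in iPS F65 and in mix1, was named after its values were seen. Grhl3 varied between arrays and was not called without replicate 1 (2.02) or without replicate 3 (2.14).

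**Figure D4:**
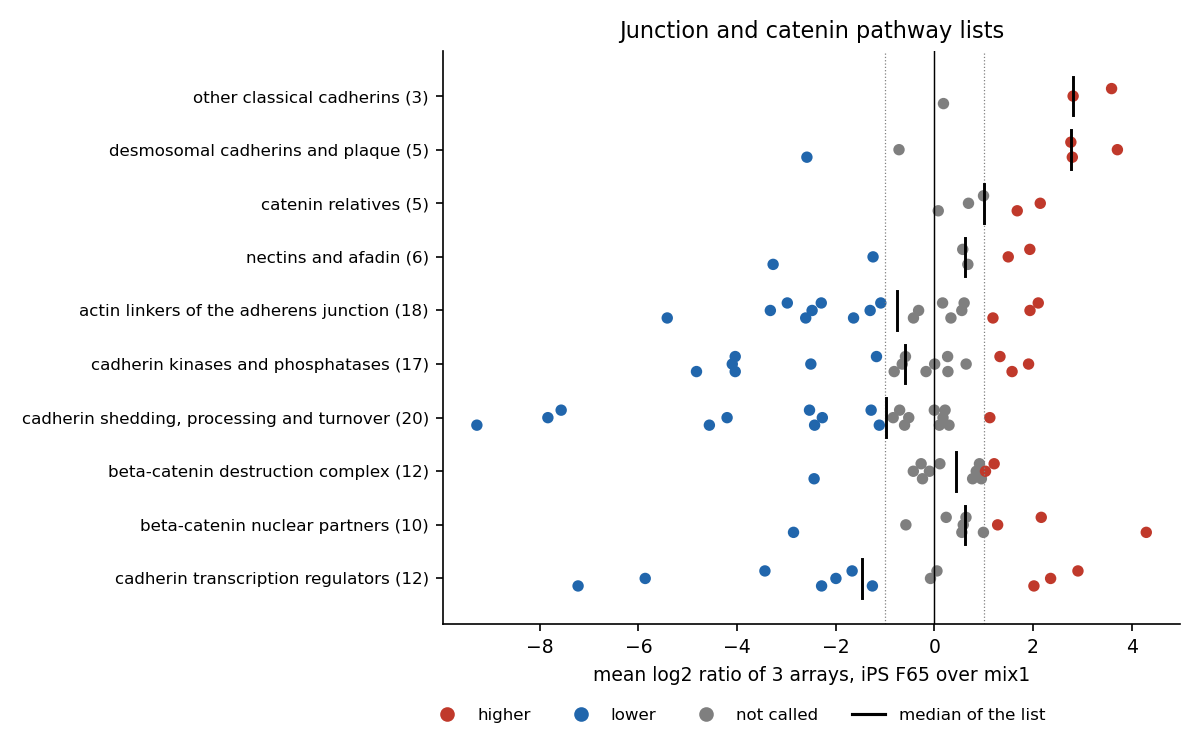
Mean log2 ratio of iPS F65 over mix1 over 3 arrays (horizontal axis) for each tested gene of 10 lists, with the number tested in brackets, a black bar at the list's median and dotted lines at a 2-fold change. Vertical offsets only separate points. Genes not above background in 1 channel, such as the lowest shedding gene, Mmp3, are drawn at their measured ratio though only a bound holds. Among genes above it in both channels, shedding and turnover reach -7.84 and regulators of transcription -7.22, while most genes of the destruction complex lie between the dotted lines.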

How the data were processed

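Per the file headers, Agilent Feature Extraction 9.5.3.1 made the deposited scanner files. Per the file headers, the processed intensity values used here were background-subtracted by that software and its dye normalization scaled the channels, while the mean spot intensities carry no normalization. The authors' deposited log2 values matched log2 of green over red processed signals within 3.10925e-06 for 41012 probes, so they run as iPS F65 over mix1. They were used as an alternative.

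Per array, 45018 spots held 43379 gene spots. Control spots and 204 to 213 gene spots with an outlier flag were left out, and no gene spot was saturated. Between 57.1% and 61.2% of gene spots were well above background in iPS F65 and 58.3% to 62.1% in mix1. The number of arrays, 3, limits the precision. Log2 ratios of processed signals were averaged over the spots of a probe. A probe was tested if well above background in 1 channel on all 3 arrays, where more of its spots had to pass than fail (25801 probes). The test of each mean against 0 used lmFit and eBayes of limma 3.58.1 in R 4.3.3, with Benjamini-Hochberg adjustment over all tested probes. Calls needed a ratio of at least 2-fold and an adjusted p under 0.05. A gene is given by its brightest tested probe, and genes of the lists were matched by symbols updated through the RefSeq table. For bounds, channels were normalized by Aquantile, which is open to dye bias without a swap. Normexp and loess gave ratios smaller than the bound for most genes given a bound above. Among them were Cdh1, Cdh11, Cdh6, Perp, Mmp3, Lef1, Bcl9l and Epcam. The scripts were tested on simulated data. All 3 arrays form 1 group on 1 slide, so no batch could be tested. Alternatives were background correction, dye scaling, centring, filters, several probes per gene and leaving out each replicate. Normexp used an offset of 50.

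Members, lists and the naming rule (all members, the 2 largest called ratios per pathway list and direction, and the 2 largest per marker list) were chosen with earlier results of these data known.

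1 sequence and 1 gene list are not reported here.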

Additional observations from a re-analysis of the deposited data

How the results depend on the processing

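With each replicate left out in turn, 2 members stayed higher and 5 lower, and counts over all genes were 6688 to 6717 higher and 5274 to 5318 lower. The 7 member calls also kept their direction and threshold under median centring, the authors' deposited log2 values, no filter, the mean of all tested probes, and loess with either uneven backgrounds replaced before normexp or no background subtraction. Normexp with backgrounds as given left 0 members higher and 3 lower. Cdh1 (0.55, adjusted p = 0.246), Cdh2 (0.95, 0.011), Cdh3 (-0.45, 0.211) and Cdh11 (-2.70, 0.0838) lost their calls there, all in the reported direction, and the cause was not tested. Requiring both channels above background left 1 member higher, because Cdh1 is not tested then, and Cdh11 drops out too. Over all genes, 6731 were higher and 5340 lower. This became 3967 higher and 5701 lower (18.2% and 26.1%) with normexp, uneven backgrounds replaced and loess, 2345 and 2072 with backgrounds as given, 3964 higher without background subtraction, and 3234 lower with both channels required. Among the named genes, Ptprk, Psen2, Btrc and Cul1 were not called with loess, whether uneven backgrounds were replaced before normexp or none was subtracted. With backgrounds as given, calls were lost for 27 of the 57 named genes, with no sign turned. Besides the 4 members, those in the text are Cdh6, Cdh10, Perp, Pkp2, Nectin2, Shroom3, Lima1, Ptprk, Fes, Psen2, Btrc, Axin2, Lef1, Bcl9l, Grhl3, Klf8, Twist2, Erg, Eng, Epcam, Ocln and Cnn1. Signal over background limits Cdh1 in mix1, Cdh11 in iPS F65 and Cdh5 in both. No paired analysis was possible because the arrays form 1 group and mix1 has no replicates of its own.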

Other observations

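Besides the 18 probes, the arrays carry 1 named by a database entry that its description calls the promoter region and exon 1 of the beta-catenin gene. It was chosen after its values were seen. The probe lies at chr8:125996885-125996944 on the plus strand (rn3), near both Ctnnb1 probes. It gave 3267, 3676 and 3619.5 in iPS F65, against 1408, 1505 and 1533 in mix1, without overlap. The log2 ratio was 1.25 ± 0.04 (limma, adjusted p = 1.86e-05), and 0.76 ± 0.02 with normexp and loess, where it was not called. The ratio of this upstream probe was thus higher than those of Ctnnb1 probe 2 (0.47 ± 0.02) and probe 1 (-0.01 ± 0.00), which lie further along the gene.

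Chromosome 19 holds 5 of the 10 genes. Cdh5 and Cdh11 are a second pair with 0 protein-coding genes between them in the RefSeq table, as Cdh1 and Cdh3 are. Of these pairs, Cdh5 was too dim to test beside the far lower Cdh11, and Cdh1 was higher beside the lower Cdh3.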
